A study of Mus musculus with 20 samples.

Results

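The Gadd45 genes encode a family of small acidic nuclear proteins, and 3 of them, Gadd45a, Gadd45b and Gadd45g, were followed here in unloaded mouse muscle. They were taken as all noncontrol probes that carry 1 of these names in the scanner files, which gave 4 probes for 3 genes among 41174 probes for 27670 named genes. The RNA was that of 2 hind-limb muscles, soleus and gastrocnemius, taken from male ICR mice aged 6 months, singly caged on a reversed light cycle. The hind-limb suspension (HLS) mice had been hung by the tail for 24 h at a head-down tilt of 45°, and the control mice had moved freely for the same time. Both muscles came from each of 10 animals, so the 4 groups were soleus HLS, soleus control, gastrocnemius HLS and gastrocnemius control, with 5 one-colour arrays each. Muscle was used whole, so a smaller share of 1 cell type and less of its RNA per cell cannot be told apart.

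Gadd45 proteins have no known enzymatic activity of their own and act by binding others. They bind and activate the kinase Map3k4, which feeds the p38 and JNK stress pathways, they bind Pcna, Cdk1 and the cell cycle inhibitor Cdkn1a in growth arrest and repair, and they have been linked to active DNA demethylation. In mouse skeletal muscle Gadd45a is known as a gene that denervation, immobilisation and fasting induce in fibre nuclei, with Hdac4 and Atf4 among the factors reported to drive it.

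Gadd45a and Gadd45g were higher after HLS than in controls in both muscles, while Gadd45b did not pass the test in either. Gadd45a was 6.83-fold higher in HLS than in control soleus and 2.58-fold higher in HLS than in control gastrocnemius. Gadd45g was 2.86-fold and 3.16-fold higher in the same comparisons. Both Gadd45b probes stood lower after HLS in soleus, and their mean differences missed the threshold. The members were tested in a fit over 25177 genes, in which 5.89% of genes passed an adjusted p of 0.05 in soleus and 3.17% in gastrocnemius. The count of members was 2 of 3 in each muscle, both higher. Of all genes, 2.38% were called higher and 3.51% lower in soleus, and 1.17% higher and 2.01% lower in gastrocnemius.

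The 3 genes lie on different chromosomes of GRCm38.p6. Gadd45a spans chr6:67035096-67037407, Gadd45b spans chr10:80930091-80932204 and Gadd45g spans chr13:51846675-51848475. The 250 bases before each RefSeq start are given as a description, and the capitals mark matches to the motifs searched. Any part of these motifs in the HLS differences was not tested. The windows are chr6:67037408-67037657 on the minus strand, chr10:80929841-80930090 on the plus strand and chr13:51846425-51846674 on the plus strand, each written in the direction of its gene.
Gadd45a: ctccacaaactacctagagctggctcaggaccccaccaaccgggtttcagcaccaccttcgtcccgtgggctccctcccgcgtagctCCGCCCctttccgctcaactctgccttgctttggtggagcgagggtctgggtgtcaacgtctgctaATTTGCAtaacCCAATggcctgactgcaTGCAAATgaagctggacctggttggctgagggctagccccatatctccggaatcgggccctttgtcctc
Gadd45b: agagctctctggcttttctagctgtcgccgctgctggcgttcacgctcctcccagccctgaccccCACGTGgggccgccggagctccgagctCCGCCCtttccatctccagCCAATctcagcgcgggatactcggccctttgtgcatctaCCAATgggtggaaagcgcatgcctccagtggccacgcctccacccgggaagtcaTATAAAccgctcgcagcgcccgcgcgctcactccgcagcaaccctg
Gadd45g: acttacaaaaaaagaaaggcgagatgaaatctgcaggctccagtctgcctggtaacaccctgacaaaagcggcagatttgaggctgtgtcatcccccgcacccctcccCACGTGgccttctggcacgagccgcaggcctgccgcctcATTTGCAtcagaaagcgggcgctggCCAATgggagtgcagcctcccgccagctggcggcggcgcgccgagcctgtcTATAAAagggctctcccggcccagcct

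Both strands were searched for 7 motifs. The first was CCAAT, the core bound by the factor NF-Y. The next was ATTTGCA, an octamer core bound by POU factors. TGTTTAC was taken as a core of the sites that forkhead factors such as the Foxo proteins bind. TGACGTC was taken for the cyclic AMP response elements to which Atf factors bind. GGGCGG stood for the GC box that Sp factors bind, and the palindrome CACGTG for the E-box of basic helix-loop-helix factors. The last motif was TATAAA, the core of the TATA box. CCAAT stood in all 3 windows, once in Gadd45a and Gadd45g and at 2 places in Gadd45b, and 33.8% of 32851 RefSeq promoter windows of this length hold it. ATTTGCA stood in Gadd45a on both strands, at 97 to 91 and at 69 to 63 bases before the start, and in Gadd45g at 103 to 97 bases before it. It was not in the Gadd45b window, and 3.56% of windows hold it. TATAAA, held by 12.4% of windows, was found in Gadd45b and Gadd45g but not in Gadd45a. The E-box, held by 6.02% of windows, was likewise in Gadd45b and Gadd45g alone. The GC box, held by 32.7%, was in Gadd45a and Gadd45b. The forkhead and CRE-like cores, held by 3.17% and 2.78% of windows, were in none of the 3. No 2 motifs overlapped. Such matches describe letters in a window and show no binding. Protein and probe sequences were not used here.

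All 4 probes were well above background and unsaturated on all 20 arrays. Levels below are log2 of processed intensity over the 75th percentile of the array, so 1 unit is a 2-fold difference, and levels of different probes were not compared. The share of all probes that were well above background ran from 80.7% to 93.1% by array. The arrays lay on 6 slides scanned on 3 days, and the slides split the groups unevenly, so within-slide values stand beside the HLS results. No slide held both muscles, so no within-slide value exists between them. The control arrays of the muscles were scanned on different days. E1A spike-in RNA stood lower over the percentile in HLS than in control gastrocnemius (1.76 ± 0.14 against 2.54 ± 0.08, SD, n = 5 each). It stood at 1.76 ± 0.20 in HLS soleus and 1.49 ± 0.05 in control soleus. Under scaling to the spike-ins the median of all genes was -0.21 in the soleus comparison and 0.79 in the gastrocnemius comparison. With the 75th percentile it was 0.05 and 0.01. Relative to the median under spike-in scaling Gadd45a was still higher by 2.72 and 1.35, and Gadd45g by 1.46 and 1.65.

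Gadd45a, the member best known in muscle atrophy, stood at 4.08, 3.86, 4.00, 2.99 and 5.09 in HLS soleus, against 0.83, 1.10, 1.47, 1.02 and 1.73 in control soleus. Every HLS soleus was above every control soleus, and the HLS arrays were the more spread. The means were 4.00 ± 0.75 in HLS soleus and 1.23 ± 0.36 in control soleus (SD, n = 5 each). The difference was 2.77 ± 0.26 (SE; 95% interval 2.22 to 3.32; limma adjusted p = 2.4e-06), and only 1 of 25177 genes had a higher difference. Over all genes, 5.06% had soleus groups that did not overlap.

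In gastrocnemius Gadd45a stood at 2.84, 3.02, 2.92, 2.26 and 3.02 in HLS, against 1.18, 1.40, 1.35, 1.61 and 1.68 in controls. These groups did not overlap either, a property of 7.40% of genes in this muscle. The difference was 1.37 ± 0.26 (SE; 95% interval 0.81 to 1.92; limma adjusted p = 0.0055), the 31st highest of all genes.

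The slides held few arrays of both arms. On slide 5, with 3 HLS and 1 control soleus, Gadd45a was higher by 2.25 in HLS, and on scan day 2, with 3 HLS and 5 control soleus arrays, by 2.75. On slide 2, with 1 HLS and 3 control gastrocnemius arrays, it was higher by 1.29, and on scan day 1, with 1 against 5, by 1.39. Each within-batch value had the sign of the whole comparison, but with slide as a fixed block the adjusted p was 0.13 in soleus and 0.53 in gastrocnemius. With scan day as the block it was 0.36 in gastrocnemius.

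**Figure D1:**
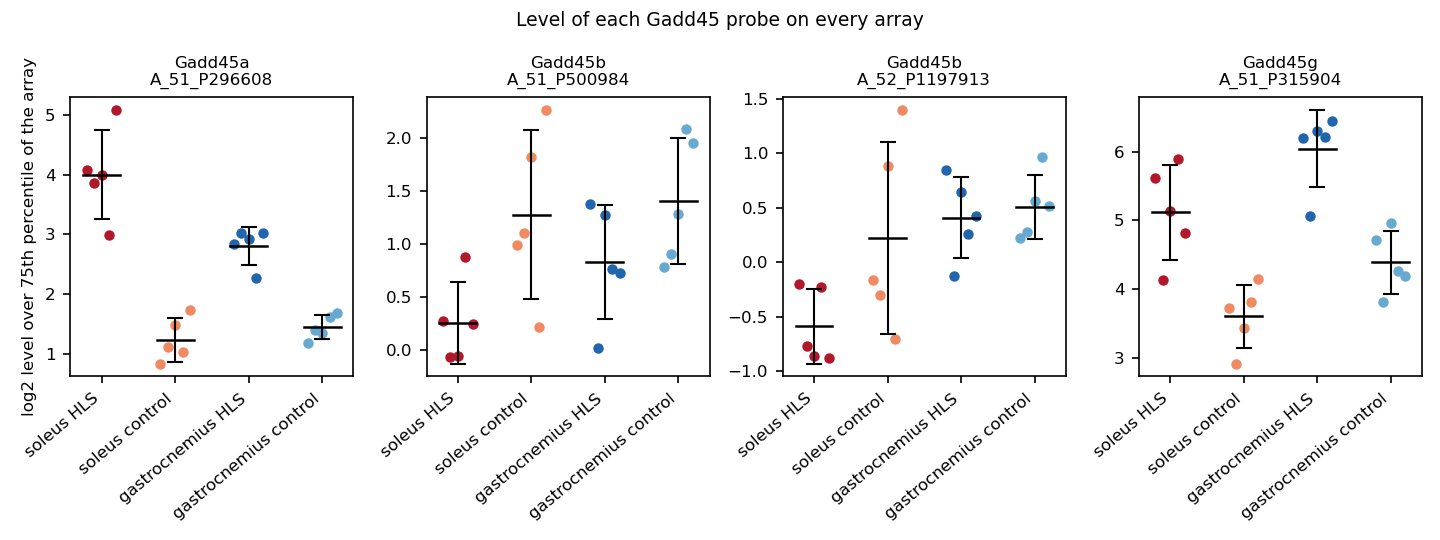
Level of each Gadd45 probe on every array, as log2 of intensity over the 75th percentile of the array; points are arrays, long bars means and error bars SD over 5 arrays, and each panel has its own axis. Gadd45a is separate between HLS and control in both muscles, Gadd45g is separate in gastrocnemius and overlaps at a single pair of arrays in soleus (4.13 in HLS against 4.14 in control), and both Gadd45b probes overlap between HLS and control.

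Gadd45g, the member known as a target of cytokine signalling and as a growth-arrest gene, stood at 5.62, 4.13, 5.13, 5.90 and 4.82 in HLS soleus. In control soleus it stood at 3.72, 2.91, 3.43, 3.80 and 4.14. The lowest HLS soleus, animal 2, lay just under the highest control, so the groups overlapped at a single pair of arrays. The difference was 1.52 ± 0.32 (SE; 95% interval 0.86 to 2.18; limma adjusted p = 0.0048), the 33rd highest of all genes.

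In gastrocnemius Gadd45g stood at 6.21, 5.06, 6.30, 6.22 and 6.45 in HLS and at 4.72, 3.81, 4.96, 4.27 and 4.19 in controls. Every HLS array was above every control array, and animal 2 was again the lowest of the HLS group. The difference was 1.66 ± 0.32 (SE; 95% interval 1.00 to 2.32; limma adjusted p = 0.0048), the 14th highest of all genes. Within slide 5 Gadd45g was higher in HLS soleus by 0.82, and without soleus HLS 1 by 0.49, with a block-fit adjusted p of 0.89. Within scan day 2 it was higher by 1.36, and without soleus HLS 1 by 1.03. With scan day as a block its adjusted p was 0.060 in soleus and 0.28 in gastrocnemius. Within slide 2 the gastrocnemius value was 1.73, with a block-fit adjusted p of 0.44, and within scan day 1 it was 1.82.

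Gadd45b, known as an NF-kB and TGF-beta responsive member, was read by a pair of probes. The brighter probe, which stood for the gene, read 0.28, -0.07, -0.05, 0.87 and 0.24 in HLS soleus, against 0.98, 1.10, 1.82, 0.21 and 2.26 in control soleus. All 5 HLS arrays lay below 4 of the 5 controls, and control animal 4 lay among the HLS arrays. The difference was -1.02 ± 0.34 (SE; 95% interval -1.73 to -0.31; limma adjusted p = 0.087). An exact two-sided permutation test of this gene alone over the 252 splits gave p = 0.032. Without soleus control 4 the difference was -1.29 (limma adjusted p = 0.025), so this array decides the call.

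The dimmer Gadd45b probe read -0.20, -0.77, -0.86, -0.23 and -0.88 in HLS soleus and -0.16, -0.30, 0.89, -0.71 and 1.40 in control soleus. Its soleus difference was -0.81 ± 0.30 (SE; adjusted p = 0.15 over 37126 probes, of which 5.41% were called). Both probes followed each other, with r = 0.87 over 20 arrays and r = 0.89 after subtracting the group means. In gastrocnemius the brighter probe read 1.38, 0.02, 1.27, 0.76 and 0.72 in HLS, against 0.78, 0.91, 1.28, 2.08 and 1.95 in controls. These groups overlapped over much of their range. The differences there were -0.57 ± 0.34 for the brighter and -0.10 ± 0.30 for the dimmer probe (SE; adjusted p = 0.49 and 0.94), where 2.82% of probes were called. Under spike-in scaling the difference of the brighter probe was -1.29 in soleus (adjusted p = 0.0080), or -1.08 relative to the median of all genes. In gastrocnemius it was 0.21, which turns its sign, or -0.58 relative to that median. Within slide 5 the brighter probe differed by -2.21 in soleus, against a single control array that was the highest of its group. Within scan day 2 it differed by -1.23, within slide 2 by -0.39 in gastrocnemius and within scan day 1 by -0.02.

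**Figure D2:**
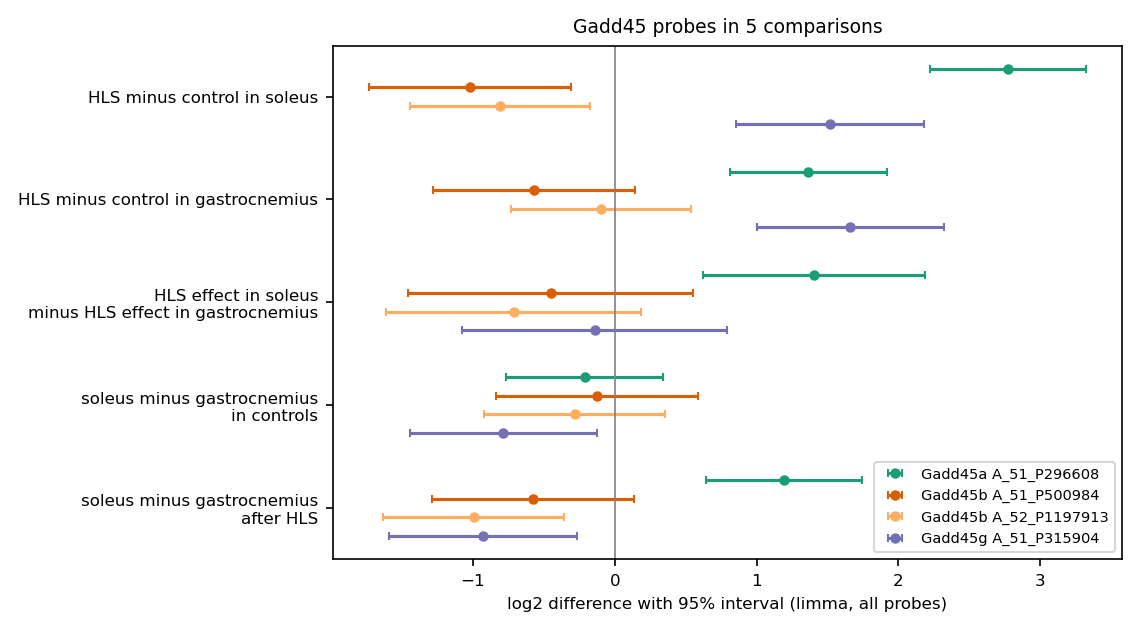
Differences of the 4 Gadd45 probes in 5 comparisons, as log2 values with 95% intervals from the limma fit over 37126 probes. Gadd45a and Gadd45g lie right of 0 in both HLS comparisons, the Gadd45b probes lie left of 0 in soleus, and only Gadd45a has an interval clear of 0 for the difference between the muscles' HLS effects.

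The HLS differences were compared between the muscles. Each animal gave both, but the limma fit held no term for the animal. The HLS difference of Gadd45a in soleus minus that in gastrocnemius was 1.41 ± 0.37 (SE; 95% interval 0.62 to 2.19; limma adjusted p = 0.44). In this test 2 of 25177 genes passed, or 0.00794%, and 1450 had an unadjusted p under 0.05. The gap between soleus and gastrocnemius within an animal was 1.24, 0.84, 1.08, 0.73 and 2.07 in the HLS mice, against -0.35, -0.30, 0.13, -0.59 and 0.05 in the control mice. No HLS animal overlapped a control animal in this gap, and the share of all genes of which this held was not counted. An exact two-sided permutation test of Gadd45a alone gave p = 0.0079. This is the smallest value the design allows, and it follows once the gaps do not overlap. Each gap was taken across different slides, and the soleus of HLS animal 1 stood apart on fibre markers, as given below. Over the alternatives other than omissions the difference between the effects ran from 0.35 to 1.42. Under spike-in scaling the difference between the effects was 0.35, or 1.37 above the median of all genes.

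For Gadd45g the same difference was -0.14 ± 0.45 (SE; 95% interval -1.08 to 0.79; limma adjusted p = 0.99). For the brighter Gadd45b probe it was -0.45 ± 0.48 (SE; 95% interval -1.46 to 0.55; limma adjusted p = 0.96).

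The order of the group means differed by gene. Each muscle lay on slides of its own, so muscle and slide cannot be told apart in these comparisons, nor muscle and scan day in controls. For Gadd45a it ran soleus HLS, gastrocnemius HLS, gastrocnemius control and soleus control. After HLS the gene was 2.29-fold higher in soleus than in gastrocnemius (1.19 ± 0.26 log2, SE; limma adjusted p = 0.0022), a comparison in which 30.9% of genes were called, 13.3% higher and 17.6% lower in soleus. The limma fit did not pair the muscles of an animal. An exact sign-flip test of Gadd45a over the HLS animals gave p = 0.0625, the smallest value it allows. The lowest HLS soleus, at 2.99, lay under the highest HLS gastrocnemius arrays at 3.02. In controls the muscles did not differ beyond their spread (-0.21 ± 0.26, SE; 95% interval -0.77 to 0.34; limma adjusted p = 0.56), where 33.5% of genes were called, 12.6% higher and 20.9% lower in soleus.

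For Gadd45g the order was gastrocnemius HLS, soleus HLS, gastrocnemius control and soleus control. After HLS the soleus minus gastrocnemius difference was -0.93 ± 0.32 (SE; limma adjusted p = 0.032), and in controls it was -0.79 ± 0.32 (SE; limma adjusted p = 0.062). Gadd45g was lower in soleus than in gastrocnemius in all 5 HLS and all 5 control animals, with gaps of -1.63 to -0.32 and -1.52 to -0.05. Of all genes, 17.6% were called lower in soleus after HLS and 20.9% in controls. The share with 1 sign in every animal was not counted. Exact sign-flip tests gave p = 0.0625 in each arm, the smallest that 5 animals allow. The call after HLS was lost when any 1 of 7 arrays was left out, with adjusted p of 0.053 to 0.10. Soleus HLS and gastrocnemius control, neighbours in this order, overlapped from 4.13 to 4.96.

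For the brighter Gadd45b probe the order was gastrocnemius control, soleus control, gastrocnemius HLS and soleus HLS, with neighbouring groups overlapping. After HLS both probes stood lower in soleus than in gastrocnemius, and only the dimmer one passed the threshold, with a difference of -0.995 ± 0.305 and no overlap (SE; adjusted p = 0.018). Of all genes, 17.7% had muscles that did not overlap after HLS. The brighter one differed by -0.58 ± 0.34 (SE; adjusted p = 0.21), and the gap between the probes was not tested. In controls the differences were -0.12 for the brighter and -0.28 for the dimmer probe (adjusted p = 0.81 and 0.50).

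**Figure D3:**
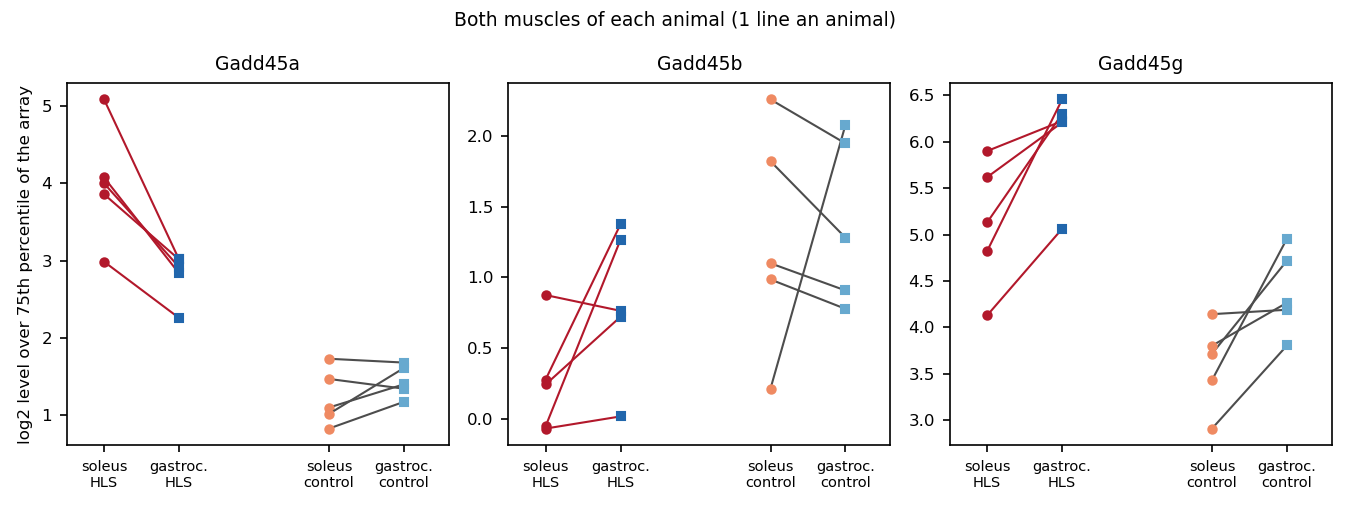
Soleus (circles) and gastrocnemius (squares) of each animal joined by a line, with 5 HLS animals at the left and 5 control animals at the right of each panel; the axis is the log2 level. Gadd45a is higher in soleus in all 5 HLS animals and of either order in controls, while Gadd45g is higher in gastrocnemius in all 10 animals.

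The members ranked the animals unlike each other in HLS soleus. HLS animal 5 had the highest soleus Gadd45a (5.09) and the next to lowest soleus Gadd45g (4.82). HLS animal 4 had the lowest Gadd45a in both muscles (2.99 and 2.26) and the highest soleus Gadd45g (5.90). In HLS gastrocnemius animal 5 had the highest Gadd45g (6.45) and shared the highest Gadd45a with animal 2 (3.02 in both). As a description over the 20 arrays, which share animals and slides, r between Gadd45a and Gadd45g was 0.53, and it was -0.27 after subtracting the group means. Between Gadd45a and Gadd45b r was -0.55, and 0.17 after that step, and between Gadd45b and Gadd45g -0.20 and 0.36.

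Fibre type markers were checked beside these values. All 8 slow myofibre genes were higher in soleus than in gastrocnemius both after HLS and in controls. Their summed level, as linear intensity over the 75th percentile, ran from 838 to 2127 in HLS soleus and from 1756 to 2267 in control soleus, and 1 of 8, Casq2, was lower after HLS. The lowest sum was that of soleus HLS 1, whose fast myofibre sum, 3915, was the highest of the 20 arrays. On it Actn3 stood at 7.91, against 7.87 to 8.37 in HLS gastrocnemius and 2.14 to 5.00 in the other HLS soleus arrays. Atp2a2 stood at 3.49, against 2.27 to 3.17 in HLS gastrocnemius and 5.78 to 6.24 in the other HLS soleus arrays. For both genes this array thus lay nearer to gastrocnemius, and the cause was not tested. Without this array the soleus differences were 2.75 for Gadd45a, -1.03 for Gadd45b and 1.39 for Gadd45g. The muscle comparisons after HLS and the gap of HLS animal 1 also rest on it. Over 20 omissions of 1 array, this one among them, the Gadd45a muscle difference after HLS ran from 0.92 to 1.45 and kept its call. The Gadd45a difference between the HLS effects ran from 1.13 to 1.66 and was never called. In gastrocnemius the slow sums were 433 to 634 after HLS and 454 to 709 in controls. The macrophage list (0 of 7 called in soleus) summed to 4.32 to 9.38 in HLS soleus and 5.47 to 11.1 in control soleus. Of all genes 5.89% were called in soleus and 3.17% in gastrocnemius, so 0 called in so short a list does not show an unchanged cell type. Of the other lists 0 of 8 fast myofibre genes and 0 of 6 neutrophil and T cell genes were called in either muscle. The same held for 0 of 6 Schwann cell genes, though their summed level had a median of 25.2 in HLS soleus and 79.8 in control soleus, and the groups overlapped. It also held for 0 of 6 adipocyte genes, with a soleus median difference of -0.76 and sums of 127.5 to 355.0 in HLS soleus and 186.0 to 437.9 in control soleus. All 6 adipocyte genes were higher in soleus than in gastrocnemius in both arms, by a median of 1.85 after HLS and 2.46 in controls, so they moved with the muscle comparisons as the slow myofibre genes did.

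Single genes of 5 further lists were called between HLS and control, and are named after their values were seen. Among 5 satellite cell genes Cdh15 rose by 0.47 and Vcam1 fell by 0.73 in soleus (adjusted p = 0.018 and 0.0045). Mfap5, 1 of 7 fibroblast genes, fell by 0.99 in soleus (adjusted p = 0.0012), and Tagln, 1 of 6 smooth muscle and pericyte genes, fell by 1.20 (adjusted p = 0.0020). Scx, 1 of 6 tendon genes, fell by 0.78 in soleus and by 0.75 in gastrocnemius (adjusted p = 0.0040 and 0.010). Kdr, 1 of 7 endothelial genes, fell by 1.12 in gastrocnemius (adjusted p = 0.023), while the median of its list was 0.17. The soleus list medians were 0.18 for satellite cell, -0.13 for fibroblast, -0.42 for smooth muscle and pericyte and -0.25 for tendon genes. The tendon median in gastrocnemius was -0.11. The summed fibroblast level had a median of 471.2 in HLS soleus and 431.8 in control soleus. These single genes thus do not stand for their lists. The part of these cells in the Gadd45 results was not tested.

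The kinase arm that Gadd45 proteins act on was followed through its RNA. Of 20 stress kinase genes, 0 rose and 1 fell in each muscle, near the share of all genes called. That share was 5.89% in soleus and 3.17% in gastrocnemius, and it is the background for the lists below as well. The list's median difference was -0.10 in soleus and -0.19 in gastrocnemius, against 0.05 and 0.01 for all genes. The gene that fell was Dusp8, a phosphatase that switches off JNK and p38. It stood at -0.31, -0.86, -0.95, -0.78 and -0.71 in HLS soleus, against 1.37, 0.86, 1.04, 0.67 and 1.10 in control soleus. Its difference was -1.73 ± 0.18 in soleus and -1.61 ± 0.18 in gastrocnemius (SE; limma adjusted p = 6.0e-06 and 3.5e-05). Map3k4, the direct kinase partner, differed by -0.17 ± 0.12 in soleus and -0.31 ± 0.12 in gastrocnemius (SE; adjusted p = 0.53 and 0.22).

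Among the growth-arrest and repair partners 2 of 14 tested genes rose and 0 fell in each muscle, with medians of 0.03 in soleus and -0.04 in gastrocnemius. Cdkn1a, the p21 inhibitor of cyclin-dependent kinases, stood at 2.15, 0.89, 0.04, 0.19 and 1.23 in HLS soleus, against -0.24, -0.50, -0.20, -0.59 and -0.53 in control soleus. All HLS arrays lay above the controls, and animal 1 was the highest. The difference was 1.31 ± 0.34 in soleus and 1.76 ± 0.34 in gastrocnemius (SE; limma adjusted p = 0.025 and 0.0055), and the soleus call was lost without soleus HLS 1, soleus HLS 5 or soleus control 4. Ing1, a chromatin reader linked to growth arrest, was higher by 0.71 in HLS soleus and by 0.63 in HLS gastrocnemius (adjusted p = 0.00019 and 0.0014).

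Of 16 DNA demethylation partners, 0 passed in soleus and 1 rose in gastrocnemius, with medians of 0.02 and -0.08. The gene was Dnmt3a, which adds rather than removes methyl groups. It stood at 1.07, 1.10, 1.31, 1.68 and 1.31 in HLS gastrocnemius, against 0.11, 0.19, 0.14, 0.23 and 0.05 in control gastrocnemius. In soleus it stood at 1.21, 1.80, 1.36, 1.57 and 1.18 in HLS and at 1.91, 1.84, 1.88, 1.57 and 1.81 in controls. It was higher after HLS in gastrocnemius by 1.15 ± 0.13 and differed by -0.38 ± 0.13 in soleus (SE; limma adjusted p = 3.1e-05 and 0.089). The difference between the muscles was -1.53 (limma adjusted p = 0.0010), and it was 1 of the 2 genes called in that test. The call of that difference was lost with the mean of all its kept probes (-0.55, adjusted p = 0.51), with slide (-1.29, adjusted p = 0.84) or scan day (-1.28, adjusted p = 0.22) as a fixed block, and with the animal as a fixed block (-1.53, adjusted p = 0.0501). The first 3 of these alternatives also ended the gastrocnemius call. Without soleus HLS 2 the soleus difference of Dnmt3a was -0.47 and was called (adjusted p = 0.027). Without soleus HLS 1 the list had 1 soleus call, that of Taf12, a subunit of the general transcription factor TFIID, which fell by 0.43 (adjusted p = 0.034) and is named after its value was seen.

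Of 30 tested genes known or reported to regulate Gadd45 transcription, 3 rose and 2 fell in soleus and 4 rose and 1 fell in gastrocnemius, with medians of 0.18 and 0.12. Hdac4, a deacetylase that denervation induces in muscle, stood at 3.46, 3.14, 3.36, 2.87 and 3.71 in HLS soleus, against 1.07, 0.71, 0.90, 0.98 and 1.50 in control soleus. Its gastrocnemius levels were 2.51, 2.31, 2.30, 1.82 and 2.27 in HLS and 0.79, 0.92, 1.11, 1.05 and 0.89 in controls. The groups were well apart in both muscles. The difference was 2.28 ± 0.16 in soleus and 1.29 ± 0.16 in gastrocnemius (SE; limma adjusted p = 6.9e-08 and 9.8e-05).

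Atf3, a stress-induced repressor of the ATF family, fell by 1.78 in soleus and by 1.51 in gastrocnemius (adjusted p = 9.6e-05 and 0.0011). Atf4, a main driver of the amino acid stress response, differed by -0.16 in soleus and 0.00 in gastrocnemius (adjusted p = 0.63 and 0.998). Foxo1 differed by 0.47 and 0.51 and Foxo3, the other forkhead factor of atrophy, by 0.21 and 0.19 (adjusted p = 0.44 and 0.46 for Foxo1, 0.68 and 0.77 for Foxo3). The Foxo3 probe was dim, with group means from -3.16 to -2.46, so a change of Foxo3 RNA could be missed. Trp53, which encodes p53, rose by 0.32 in soleus (adjusted p = 0.043), a call lost when any 1 of 13 arrays was left out. Cebpd, an inflammation-responsive factor, rose by 1.09 and 1.32 (adjusted p = 0.043 and 0.021), and its calls were lost without any 1 of 13 arrays in soleus and 5 in gastrocnemius. Myog, the myogenin gene, was higher in HLS gastrocnemius by 0.93 (adjusted p = 0.026) and differed by 0.32 in soleus (adjusted p = 0.51). Its gastrocnemius call was lost without any 1 of 6 arrays. Without soleus HLS 1 the soleus counts of this list were 1 higher and 1 lower.

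Of 24 p53 targets, a list that also holds Cdkn1a, 5 rose and 1 fell in soleus and 4 rose and 1 fell in gastrocnemius, with medians of 0.12 and 0.14. Eda2r, a receptor of the TNF receptor family, stood at 2.41, 1.17, 1.43, 0.70 and 2.03 in HLS soleus, against -0.54, -0.94, -0.59, -0.46 and -1.08 in control soleus. It rose by 2.27 in soleus and 1.31 in gastrocnemius (adjusted p = 1.5e-05 and 0.0063), and the gastrocnemius call was lost with the mean of its probes. Trp53inp1, a stress-induced nuclear protein, rose by 1.48 and 1.07 (adjusted p = 1.3e-05 and 0.00093). Sesn1, a sestrin that restrains mTORC1, rose by 0.83 and 0.82 (adjusted p = 0.0013 and 0.0034). Without soleus HLS 1 the target called lower was Zmat3, at -0.71 in soleus and -0.63 in gastrocnemius (limma adjusted p = 0.00077 and 0.0025). Zmat3 is named after its values were seen.

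Of 22 denervation and atrophy genes, which also include Hdac4 and Myog, 6 rose and 2 fell in soleus and 4 rose and 1 fell in gastrocnemius, with medians of 0.25 and 0.19. Fbxo32, the ubiquitin ligase atrogin-1, stood at 5.43, 5.16, 4.82, 4.88 and 5.36 in HLS soleus, against 3.18, 2.59, 2.92, 2.66 and 3.45 in control soleus. It rose by 2.17 in soleus and 2.43 in gastrocnemius (adjusted p = 2.9e-06 and 2.8e-06). Ankrd1, a stretch-responsive titin-binding protein, fell by 2.36 and 2.23 (adjusted p = 1.5e-05 and 7.9e-05). Fbxo31, another F-box ligase, rose by 1.55 in soleus (adjusted p = 0.00011) and differed by 0.69 in gastrocnemius (adjusted p = 0.087). Ppargc1a, the coactivator PGC-1alpha, fell by 0.87 in soleus (adjusted p = 0.020) and differed by -0.73 in gastrocnemius (adjusted p = 0.084), and the soleus call was lost without soleus control 1 or soleus HLS 5. Chrna1, a subunit of the acetylcholine receptor, and Trim63, the ligase MuRF1, rose by 1.06 and 1.18 in soleus (adjusted p = 0.00079 and 0.034), and were picked out after their values were seen.

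With slide as a fixed block, which leaves few arrays to compare, 0.0874% of all genes were called in soleus and 0.0397% in gastrocnemius. In soleus 1 of 20 stress kinase genes, 0 of 14 growth-arrest partners, 0 of 16 demethylation partners, 1 of 30 regulators, 1 of 24 p53 targets and 2 of 22 atrophy genes passed, and in gastrocnemius 1 atrophy gene did. The soleus genes were Dusp8, Hdac4, which is on 2 of the lists, Eda2r and Ankrd1, and the gastrocnemius gene was Fbxo32. The list medians in soleus were then -0.21, 0.22, -0.03, 0.12, 0.16 and 0.16 for the stress kinase, growth-arrest, demethylation, regulator, p53 and atrophy lists. In gastrocnemius they were -0.05, -0.03, -0.03, 0.09, 0.23 and 0.25 in the same order. With scan day as the block the calls in either direction, in that order, were 1, 2, 0, 2, 5 and 5 in soleus and 0, 1, 0, 1, 1 and 2 in gastrocnemius, where 3.03% and 0.0636% of all genes were called. Without soleus HLS 1 they were 1, 1, 1, 2, 6 and 8 in soleus, where 5.5% of all genes were called.

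**Figure D4:**
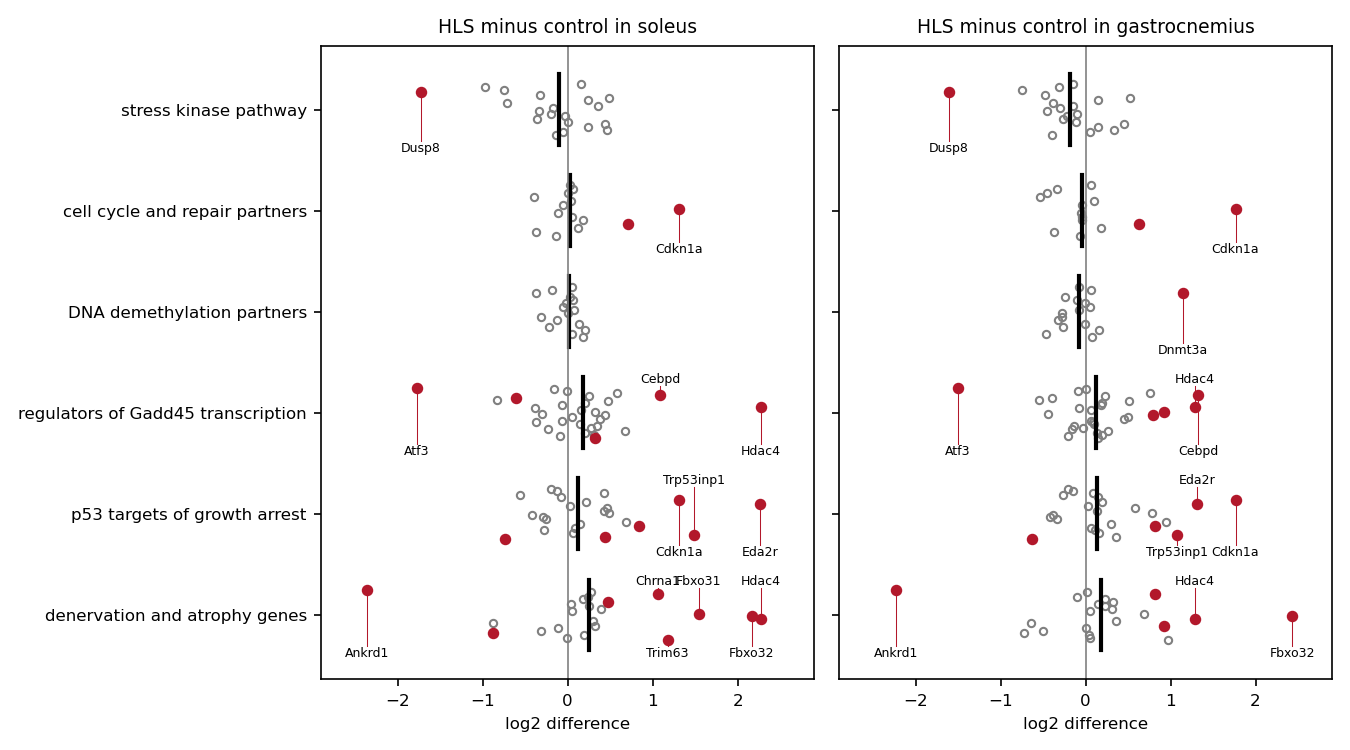
Differences of the tested genes of 6 lists around the Gadd45 family, with HLS minus control in soleus at the left and in gastrocnemius at the right; 1 point is a gene, filled where the limma adjusted p is below 0.05, and black bars are list medians. Called genes whose difference exceeds 1 log2 unit are named; most kinase, cell cycle and demethylation genes lie near 0.

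The genes whose levels over the 20 arrays were most like each member were listed by Pearson's r, as a description of arrays that share animals, slides and group differences. For Gadd45a the closest was Hdac4, with r = 0.97, and r = 0.77 after subtracting the group means. It was followed by Slc43a1, an amino acid transporter gene (0.94 and 0.61), Trp53inp1 (0.93 and 0.53), Kdm7a, a histone demethylase gene (0.92 and 0.48), Eda2r (0.91 and 0.42) and Fbxo31 (0.91 and 0.48). Castor2, a Castor family gene of the mTORC1 pathway (0.90 and 0.19), and Plcd3, a phospholipase gene (0.90 and 0.49), completed the 8. In HLS soleus, animal 5 was highest and animal 4 lowest for both Hdac4 and Gadd45a. In HLS gastrocnemius animal 4 was lowest for both, but animal 1, the highest for Hdac4 (2.51), was the next to lowest for Gadd45a (2.84). Slc43a1 was higher by 2.48 in HLS soleus and by 1.60 in HLS gastrocnemius (adjusted p = 1.1e-07 and 5.7e-05).

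For Gadd45g the closest was BC027582, a transcript named only by its accession-like symbol, with r = 0.91, and r = 0.83 after subtracting the group means. Then came Tmtc4 (0.91 and 0.80), Eif4g3, a translation initiation factor gene (0.89 and 0.60), Setd7, a lysine methyltransferase gene (0.89 and 0.56), Rora, a nuclear receptor gene of the circadian clock (0.89 and 0.51), Klhl21 (0.89 and 0.63), Tollip (0.89 and 0.68) and Vps50 (0.89 and 0.79). Rora was higher by 0.80 in HLS soleus and by 0.65 in HLS gastrocnemius (adjusted p = 0.0010 and 0.010). No gene stood in the lists of both Gadd45a and Gadd45g.

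For Gadd45b the closest genes reached lower values. AK047019 had r = 0.76, and 0.58 after subtracting the group means. Ddit3, the stress factor CHOP, had 0.76 and 0.71, and it fell by 0.61 in soleus (adjusted p = 0.026), a call lost without any 1 of 4 arrays. Arhgef10l (0.75 and 0.61), Kcna7, a potassium channel gene (0.73 and 0.49), Fnip1, a folliculin partner (0.73 and 0.62), Tmem167 (0.72 and 0.62) and Klc1 (0.72 and 0.73) followed. Kcna7 fell by 1.24 in soleus and by 0.90 in gastrocnemius (adjusted p = 4.7e-05 and 0.0027).

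**Figure D5:**
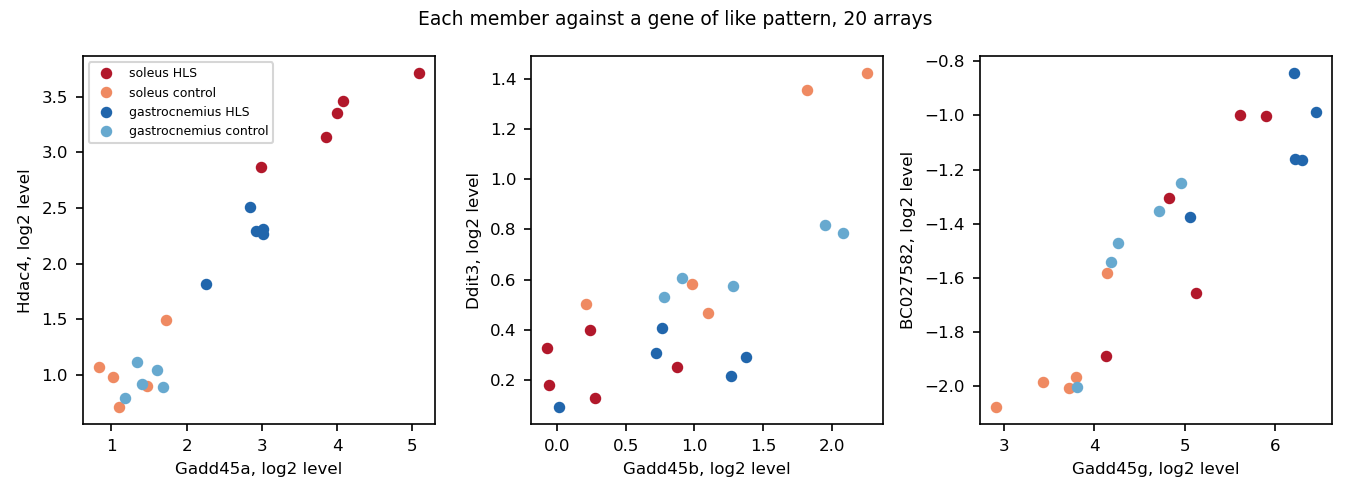
Levels on 20 arrays of Gadd45a against Hdac4, of Gadd45b against Ddit3 (the next to closest gene) and of Gadd45g against BC027582; both axes are log2 levels over the 75th percentile of the array. In the Gadd45a panel all HLS arrays lie above and to the right of the control arrays, while in the Gadd45b panel the arrays highest in Ddit3 are control soleus arrays.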

How the data were processed

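RNA of soleus and gastrocnemius from 10 mice was measured on 20 one-colour arrays, 5 per group as the labels give them. The deposited values are linear spot intensity, which per the file headers came out of Agilent's Feature Extraction software, version 9.1.3.1, and the deposited series table equals it within 0.5% and served as an alternative. No scaling between arrays is recorded in the file headers. Uneven spots were left out, processed intensity was taken to log2 minus each array's 75th percentile over noncontrol spots, and spots of a probe were averaged. Probes well above background on at least 4 of 5 arrays of a group and valued on all 20 were kept (37126), and the brightest stood for a gene (25177 genes). The 75th percentile ranged from 385.5 to 736.1. A means model of 4 groups over 20 arrays was fitted with limma 3.58.1 in R 4.3.3, with two-sided tests, Benjamini-Hochberg adjustment over all genes and a threshold of 0.05; the fit was tested on simulated data. The number of arrays limits the precision. Exact permutation tests took single genes.

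Symbols came from RefSeq accessions (22944 probes), symbols (6664) or older symbols (3108), and 8458 probes kept the file's name. Promoters are RefSeq, GRCm38.p6. Same-numbered muscles of an arm share an animal per the labels; their deviations correlated at -0.34 to 0.17 (median 0.04). The members, the lists and the naming rule were chosen with earlier results of these data known. The rule took the members, up to 4 called genes of a list with the largest change, 8 fixed genes and the 8 genes most like each member, of which 1 for Gadd45b is not reported here. List values without soleus HLS 1 or with a slide or scan-day block, and within-batch values without soleus HLS 1, were added after seeing the data. Atr had no probe of that name and Wt1 did not pass the filter. Alternatives covered background correction, scaling, filter, probe choice, arrays fitted, slide, scan day, animal and single arrays left out. Figures were drawn with matplotlib 3.10.9.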

Additional observations from a re-analysis of the deposited data

Results flagged for a closer look

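Gadd45a in HLS gastrocnemius of animal 4, at 2.26, lay apart from the other 4 arrays of its group, the next of which stood at 2.84. The gap was 0.76 of the group's range, above the critical value of 0.71 for 5 arrays. The same animal also had the lowest HLS soleus value of this gene, 2.99. Without this array the gastrocnemius difference kept its direction and its call.

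Gadd45g in HLS gastrocnemius of animal 2, at 5.06, lay below the next array at 6.21, a gap of 0.82 of the range. Animal 2 also had the lowest soleus value of Gadd45g among HLS animals, 4.13, and control animal 2 the lowest of each control group. About 1 group in 20 is picked out this way by chance.

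The HLS difference of Gadd45a was larger in soleus than in gastrocnemius by 1.41. The exact permutation test over animals gave p = 0.0079, the smallest it can give, while the limma adjusted p over all genes was 0.44.

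Among the genes around the family, Dnmt3a in control soleus of animal 4, at 1.57, lay below the next array at 1.81, and Fbxo32 in control gastrocnemius of animal 2, at 1.06, lay below the next at 1.92. The HLS difference of Dnmt3a in soleus minus that in gastrocnemius was -1.53 (limma adjusted p = 0.0010). It was not called with the mean of its probes (-0.55), slide (-1.29) or scan day (-1.28) as a fixed block, or the animal as a fixed block (-1.53, adjusted p = 0.0501). Its 5 HLS gastrocnemius arrays were all above the controls, and no HLS soleus array was above the highest control.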

How the results depend on the processing

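Over 20 omissions of 1 array, Gadd45a and Gadd45g kept direction and call in both HLS comparisons: 2.50 to 3.02 and 1.32 to 1.76 in soleus, 1.30 to 1.50 and 1.51 to 1.91 in gastrocnemius. Slide as a fixed block rests on 3 HLS against 1 control soleus array and 1 HLS against 3 control gastrocnemius arrays, and ended their calls: Gadd45a 2.25 and 1.29, Gadd45g 0.82 and 1.73. Scan day as a block ended those of Gadd45g in soleus (1.36) and of Gadd45a (1.39) and Gadd45g (1.82) in gastrocnemius. The genes called fell to 22 and 10 with slide, and to 762 and 16 with scan day, against 1483 in soleus and 799 in gastrocnemius. Spike-in scaling called 3507 and 23456 genes there, 23275 for the difference of effects and 22522 between control muscles. It gave Gadd45b -1.29 in soleus (called) and 0.21 in gastrocnemius (sign turned), and differences of effects of -1.50 for Gadd45b and -1.19 for Gadd45g (both called), or -0.49 and -0.18 relative to the median of all genes. It also turned the control muscle comparison to 0.85, 0.94 and 0.27 for Gadd45a, Gadd45b and Gadd45g. Relative to the median of all genes, which was then 1.003, they stood at -0.16, -0.07 and -0.73.

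The exact permutation test of Gadd45b alone in soleus (-1.02) gave p = 0.032, not adjusted over genes. For the Gadd45a difference of effects (1.41) the exact permutation test of that gene alone gave p = 0.0079, also unadjusted. The limma adjusted p over all genes was 0.087 and 0.44, so neither was called in that fit. Gadd45b in soleus ran from -1.29 to -0.78 over the omissions, the first without soleus control 4. Its control muscle difference ran from -0.37 to 0.14 and was 0.56 with scan day; it turned without gastrocnemius control 4 (0.05), gastrocnemius control 5 (0.01) or soleus control 4 (0.14). The Gadd45g difference of effects ran from -0.39 to 0.11, turning without gastrocnemius control 2 (0.0031) or soleus HLS 2 (0.11). Gadd45g between control muscles was called with quantile normalization (-0.94), the compared arrays alone (-0.79), slide as a random block (-0.80), a variance trend (-0.79) and the animal as a replicate block (-0.79); it ran from -0.93 to -0.61 over omissions. After HLS it ran from -1.17 to -0.68, and lost its call with the compared arrays alone (-0.93) and scan day (-1.05).

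The compared arrays alone called 700 genes in soleus. Omissions called 446 to 917 genes in gastrocnemius, with the fewest without gastrocnemius control 2 (446) and gastrocnemius HLS 5 (497), and 1 to 13 for the difference of effects. That count was 4 with normexp, 6 with quantile, 1 without the dim filter, 8 with probes above background on all 20 arrays, 6 with slide as a random block and 9 with a trend. It was 0 with the mean of probes, slide or scan day fixed, and the animal as a fixed block. The control muscle count was 1367 with scan day. The animal block changed no other member's call.

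Among the other named genes, spike-in scaling turned signs in soleus for Foxo3 (-0.061) and Vps50 (-0.039). In gastrocnemius it did so for AK047019 (0.34), Arhgef10l (0.38), Atf4 (0.78), Ddit3 (0.38), Fnip1 (0.20), Klc1 (0.34), Map3k4 (0.48), Ppargc1a (0.056) and Tmem167 (0.48). Slide as a block turned Foxo1 in soleus (-0.23) and Atf4 (0.21), scan day Atf4 (0.14) and Klc1 (0.40), quantile Atf4 (0.029) and the mean of probes Foxo3 (-0.0055) in gastrocnemius. Atf4 there also ran from -0.10 to 0.068 over omissions. The causes were not tested. Small groups, and slides that nearly match them, limit these results.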
